A study of Mus musculus with 8 samples.

Results

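Cholesterol synthesis was followed through 7 genes: Hmgcs1, Fdps, Fdft1, Sqle and Dhcr7, which encode enzymes of the pathway, and Srebf2 and Insig1, which encode its regulators. The members were all probes with a gene name equal to 1 of these symbols, which gave 12 of 56599 probes, and the 7 genes were among 22509 genes tested. Their transcripts were measured in CD11b+ cells from brains of male C57BL/6N mice aged 7 days, at 24 h after lipopolysaccharide (LPS, the endotoxin of Gram-negative bacteria, used to set off inflammation) or after saline. CD11b is an integrin chain of microglia and other myeloid cells, and the cells were taken by magnetic sorting. There were 4 tubes of LPS mice and 4 tubes of saline mice, each tube holding the brains of 2 mice, and RNA of each tube was hybridised to 1 Agilent array of a single colour. A tube is therefore a pool, and no value below belongs to 1 animal. The label names uptake as well as synthesis, but none of the 7 genes encodes a lipoprotein receptor, and uptake genes are given only as a separate list.

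Cells make cholesterol from acetyl units through mevalonate, then squalene, then a series of sterols. SREBP-2, the product of Srebf2, is held in the endoplasmic reticulum by Insig proteins while sterols are plentiful, and when sterols fall it is cleaved and switches on nearly all genes of the pathway, its own gene and Insig1 included. In the brain cholesterol is made locally, since lipoproteins of the blood do not cross the blood-brain barrier, and astrocytes and myelinating cells are known as major producers. In cultured macrophages, interferon and Toll-like receptor signals are known to act on this pathway.

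The sequences below show the promoter element through which SREBP-2 acts and the sites that the arrays read. RefSeq promoter windows (build GRCm38.p6, 250 bases before and 50 after the start) were at hand for 4 of the 7 genes, Hmgcs1, Dhcr7, Insig1 and Srebf2. They were searched on both strands for TCACNCCAC (sterol regulatory element), CCAAT (the box bound by NF-Y) and GGGCGG (the GC box bound by Sp1), and capitals mark every match. The first window is Hmgcs1 at chr13:119690101-119690400, the second Srebf2 at chr15:82147019-82147318, both on the plus strand.
Hmgcs1 promoter: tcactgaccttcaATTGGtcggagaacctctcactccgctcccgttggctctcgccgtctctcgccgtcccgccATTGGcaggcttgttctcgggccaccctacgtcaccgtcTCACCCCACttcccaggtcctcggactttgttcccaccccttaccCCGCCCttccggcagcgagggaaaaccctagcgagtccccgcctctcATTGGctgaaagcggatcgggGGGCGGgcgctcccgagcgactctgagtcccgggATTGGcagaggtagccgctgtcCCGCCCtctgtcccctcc
Srebf2 promoter: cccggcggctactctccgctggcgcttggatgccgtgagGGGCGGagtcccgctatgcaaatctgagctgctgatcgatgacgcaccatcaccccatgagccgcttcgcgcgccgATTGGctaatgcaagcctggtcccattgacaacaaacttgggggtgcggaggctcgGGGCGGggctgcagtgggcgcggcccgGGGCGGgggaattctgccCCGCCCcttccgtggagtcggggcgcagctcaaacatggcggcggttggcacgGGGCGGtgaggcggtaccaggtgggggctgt
The Hmgcs1 window held 1 sterol regulatory element, TCACCCCAC, which began 137 bases before the start, with 4 CCAAT boxes and 3 GC boxes around it. The Srebf2 window held 0 matches to this element, with 1 CCAAT box and 5 GC boxes. The Insig1 window had 0, 1 and 3 matches to the same motifs. Of 3 Dhcr7 windows, none held the element and 1 held 2 CCAAT boxes and 3 GC boxes. Among all 32851 windows, 1.24% held the sterol regulatory element, 37.4% a CCAAT box and 35.7% a GC box. A match is a description of the letters, and its absence from a window says nothing of the factor.

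Each probe was 60 bases long. The first 30 bases of the probes that the results below turn on are shown, in the direction of the transcript, with positions of the whole probe on build mm9, the build of the array files.
Fdps, chr3:88897549-88897608, minus strand: tcttcatggaacttgcaaacaagatctaca
Hmgcs1, NM_145942, chr13_random:114793-114852, minus strand: agtaattttaacgtttgggtgccaagaagt
Hmgcs1, ENSMUST00000226092.1, chr13_random:121437-121496, minus strand: ggcagtgtcataatgtgactggagtgagaa
Dhcr7, NM_007856, chr7:151033874-151033933, plus strand: tcagaggccattgaagaagggaggcttttt
Dhcr7, ENSMUST00000208535.1, chr7:151016973-151017032, plus strand: atgccagaaagaggtacacctagtagtgta
Hmgcs1 and Dhcr7 each have a probe to their RefSeq transcript and another to a different Ensembl transcript, and in both genes the 2 probes gave different changes, as described with each gene.

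All 8 arrays were of 1 slide with 1 scan time. The share of probes well above background was 58.6% to 63.2% on LPS arrays, with a median signal of 11.7 to 17.3, and 61.9% to 66% on saline arrays, with a median signal of 15.5 to 21.5. Of the LPS arrays, LPS 3 had the lowest mean correlation with the others of its group (0.982, against 0.988 to 0.991). LPS 3 was also the brightest LPS array (63.2% and 17.3), within the range of the saline arrays. Saline 3, in the same column of the slide, was the brightest saline array (66% and 21.5). Levels are log2 processed signal minus the 75th percentile of the array, so 0 is the signal at that percentile, and levels of different genes are not comparable. A change is the mean log2 level of 4 LPS arrays minus that of 4 saline arrays, with its standard error, from limma over all 22509 genes with Benjamini-Hochberg adjusted p, and a gene is called at an adjusted p under 0.05. The number of arrays limits the precision. In RNA of pooled cells, fewer cells of a type and less RNA per cell cannot be told apart.

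The comparison of LPS with saline asks how brain myeloid cells of postnatal mice differ after a systemic inflammatory stimulus. Of the 7 cholesterol synthesis genes, 2 passed the test, in opposite directions. Fdps rose 1.52-fold. Hmgcs1 fell to 0.869-fold, close to the threshold and at 0.01 on the log2 scale when scaled to the array median. Sqle, Fdft1, Dhcr7, Insig1 and Srebf2 did not pass the test, with changes of -0.08 to 0.13. The calls were 1 of 7 higher and 1 of 7 lower, where 27.8% of all genes were called higher and 21.5% lower (49.3% in either direction). LPS and saline arrays did not overlap in 2 of the 7 genes, Fdps with LPS above and Hmgcs1 with LPS below. Over all genes this held for 44.7%, with LPS above in 25.8% and below in 18.9%. The median change of the 7 genes was 0.07 and that of all genes 0.02, and the median of the 7 turned to -0.08 when the percentile was taken over the probes detected on every array and to -0.03 with quantile normalization. All 7 genes were well above background on all 8 arrays, so none was kept by the filter through 1 group only.

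**Figure D1:**
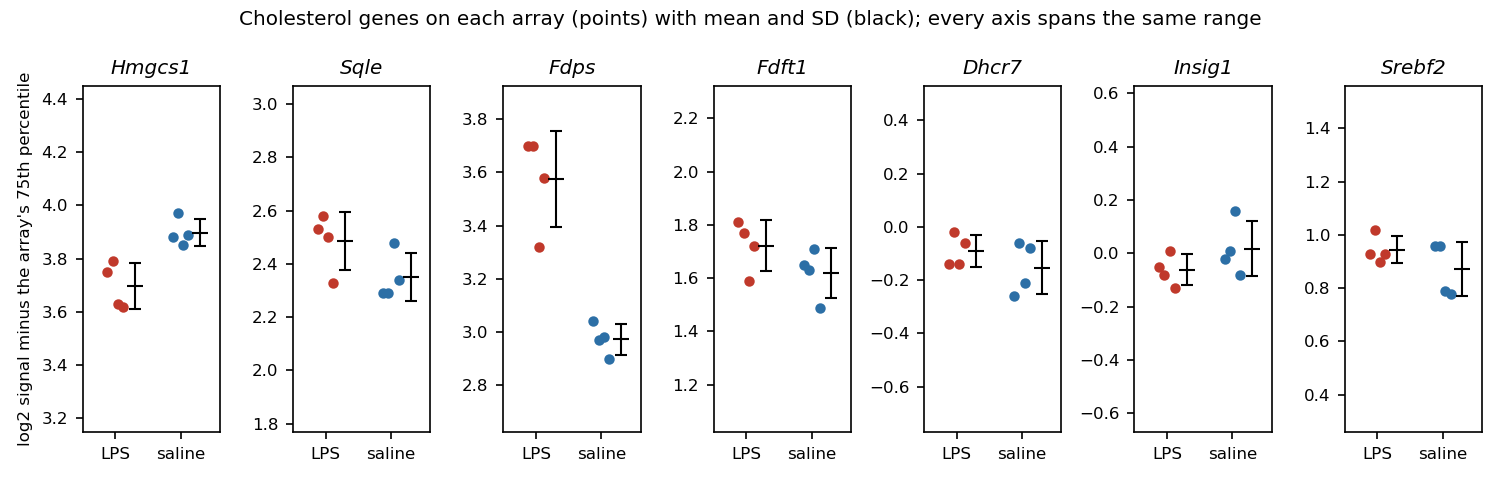
Level of each of the 7 genes on each array, as log2 processed signal minus the 75th percentile of the array (y axis), with LPS arrays left of saline arrays. Points are arrays, black bars are the mean and SD of 4 arrays, and every y axis spans the same range. Fdps was above and Hmgcs1 below all saline arrays on all 4 LPS arrays, while the groups overlap for the other 5 genes.

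The pathway's early enzyme among the 7 is Hmgcs1, cytosolic HMG-CoA synthase, which condenses acetyl groups into the precursor of mevalonate. Hmgcs1 was at 3.75, 3.79, 3.63 and 3.62 on LPS arrays 1 to 4, against 3.88, 3.97, 3.85 and 3.89 on saline arrays 1 to 4. The highest LPS array lay just under the lowest saline array. The change was -0.20 ± 0.07 (adjusted p = 0.0445, lower in 4 of 4 LPS arrays than in any saline array), a fold of 0.869 with a 95% confidence interval of 0.775 to 0.973. This call was lost when any 1 of the 8 arrays was left out (-0.23 to -0.18, adjusted p = 0.0549 to 0.116). Hmgcs1 was past the test in 12 of the 15 settings that kept all arrays. These are not independent, since they include the values reported and the nearly identical deposited values of the authors (adjusted p = 0.0444). Hmgcs1 was at -0.36 when scaled over the probes detected on every array (adjusted p = 0.00172) and -0.46 with quantile normalization (adjusted p = 0.00092). Hmgcs1 was at -0.59 as the mean of its probes (adjusted p = 0.0141), which includes the dimmer probe described below. It was not past the test with slide row as a block (-0.20, adjusted p = 0.0706), with no filter on dim probes (-0.20, adjusted p = 0.0825) or when arrays were scaled to their median (0.01, adjusted p = 0.953). The dimmer Hmgcs1 probe, for ENSMUST00000226092.1, had a mean processed signal of 7.32 on LPS arrays and 15.9 on saline arrays. Its change was -0.98 ± 0.30 (adjusted p = 0.0288 over all probes), but -0.07 (adjusted p = 0.23) with normexp background, whose offset of 50 by itself shrinks changes of probes this dim.

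Fdps encodes farnesyl diphosphate synthase, whose product feeds both sterol synthesis and the lipid anchors of prenylated proteins. Fdps was at 3.70, 3.70, 3.32 and 3.58 on LPS arrays 1 to 4, against 3.04, 2.97, 2.98 and 2.90 on saline arrays 1 to 4. All LPS arrays lay above all saline arrays, and LPS 3 was the lowest of them. Fdps rose by 0.60 ± 0.10 (adjusted p = 0.00215), 1.52-fold with a 95% confidence interval of 1.30 to 1.77. Its change exceeded that of 88.1% of all genes tested. It was called in all 8 fits that left out an array (0.56 to 0.68) and under all 14 alternatives that kept all arrays (0.35 to 0.81). Within slide row 1 it was 0.63 (adjusted p = 0.0373) and within slide row 2 it was 0.57 (adjusted p = 0.203), with 2 arrays per group in each. A single probe measured this gene.

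Set against each other within each array, which needs no scaling between arrays, Fdps and Hmgcs1 moved apart. The log2 ratio of Fdps to Hmgcs1 signal, relative to its mean on saline arrays, was 0.87, 0.84, 0.62 and 0.88 on LPS arrays 1 to 4, against 0.08, -0.07, 0.05 and -0.06 on saline arrays 1 to 4. The ratio was 0.80 higher on LPS arrays (SD 0.122 for LPS and 0.0811 for saline, n = 4 each). This pair was chosen after the values were seen and was not tested. A ratio of this kind shows unequal change and not which gene moved.

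The next 2 enzymes commit the pathway to sterols. Fdft1 encodes squalene synthase, which joins 2 farnesyl diphosphates into squalene. Fdft1 was at 1.81, 1.77, 1.59 and 1.72 on LPS arrays 1 to 4, against 1.65, 1.63, 1.71 and 1.49 on saline arrays 1 to 4. The groups overlap, since LPS 3 lay below 3 of the saline arrays. The change was 0.10 ± 0.08 (adjusted p = 0.318), a fold of 1.07 with an interval of 0.943 to 1.22. With array weights the change was 0.18 and passed the test (adjusted p = 0.037). A second Fdft1 probe to the same transcript gave 0.02 ± 0.11 (adjusted p = 0.881).

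Sqle encodes squalene epoxidase, the first oxygenation of the pathway. Sqle was at 2.53, 2.58, 2.50 and 2.33 on LPS arrays 1 to 4, against 2.29, 2.29, 2.48 and 2.34 on saline arrays 1 to 4. The groups overlap through the low LPS 4 and the high saline 3. The change was 0.13 ± 0.08 (adjusted p = 0.206), a fold of 1.10 with an interval of 0.962 to 1.25. A second Sqle probe, to ENSMUST00000161953.1, was well above background on 0 of 8 arrays and was not tested.

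Dhcr7 encodes 7-dehydrocholesterol reductase, which makes cholesterol itself in the last step of one branch. Dhcr7 was at -0.14, -0.02, -0.14 and -0.06 on LPS arrays 1 to 4, against -0.26, -0.06, -0.21 and -0.08 on saline arrays 1 to 4. The groups overlap between -0.14 and -0.06. The change was 0.06 ± 0.08 (adjusted p = 0.527), a fold of 1.04 with an interval of 0.924 to 1.18. The dim probe to ENSMUST00000208535.1, at a mean signal of 10.5 on LPS arrays and 16.1 on saline arrays, went the other way (-0.48 ± 0.15, adjusted p = 0.0299 over all probes). With normexp background that probe changed by 0.00 (adjusted p = 0.996), and averaging both probes turned Dhcr7 to -0.21 (adjusted p = 0.0729).

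The regulators did not pass the test. Srebf2 was at 0.93, 1.02, 0.90 and 0.93 on LPS arrays 1 to 4, against 0.96, 0.96, 0.79 and 0.78 on saline arrays 1 to 4. Saline 1 and 2 lay within the LPS range, and saline 3 and 4 below it. The change was 0.07 ± 0.08 (adjusted p = 0.431), a fold of 1.05 with an interval of 0.933 to 1.19, and a second Srebf2 probe gave 0.17 ± 0.09 (adjusted p = 0.169). Insig1, whose product retains SREBP in the endoplasmic reticulum and whose gene is itself a target of SREBP-2, was at -0.05, -0.08, 0.01 and -0.13 on LPS arrays 1 to 4, against -0.02, 0.01, 0.16 and -0.08 on saline arrays 1 to 4. The groups overlap, with saline 3 the highest and LPS 4 the lowest. The change was -0.08 ± 0.08 (adjusted p = 0.382), a fold of 0.944 with an interval of 0.836 to 1.07. Each of the 4 columns of the slide held 1 LPS and 1 saline array, and the difference within columns 1 to 4 was -0.04, -0.09, -0.16 and -0.05 for Insig1 and 0.12, 0.04, 0.07 and 0.01 for Dhcr7. Both were thus of 1 sign in 4 of 4 columns, but with slide column as a block neither Insig1 (adjusted p = 0.218) nor Dhcr7 (adjusted p = 0.346) passed the test. Fdps was higher on LPS in all 4 columns (0.66, 0.73, 0.34 and 0.67) and Hmgcs1 lower in all 4 (-0.13, -0.18, -0.23 and -0.27), and both passed the test with that block (adjusted p = 0.00411 for Fdps and 0.0254 for Hmgcs1). The other 3, Sqle, Fdft1 and Srebf2, were not of 1 sign over the columns and did not pass. The fit with that block called 7489 of all 22509 genes higher and 6131 lower. How many of all genes were of 1 sign over the columns was not counted, so the agreement in sign has no background beside it. The array data measure transcripts, and the cleavage of SREBP-2 protein was not measured.

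For the 5 genes that did not pass, the intervals reach no further than 0.836-fold and 1.25-fold under this scaling. An interval that spans no change does not show that a gene did not change. The scaling between arrays shifted all genes together: the median change of all genes was 0.02 with the 75th percentile, 0.24 with the array median and -0.13 with the 75th percentile over the probes detected on every array. Relative to that median, the change of Fdps was 0.58 and that of Hmgcs1 -0.23 under each of these 3, and the other 5 genes lay at -0.11 to 0.11. The 3 coincide by construction, since each subtracts a single value per array from all genes. With quantile normalization Fdps was at 0.37 and Hmgcs1 at -0.46 relative to the median.

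**Figure D2:**
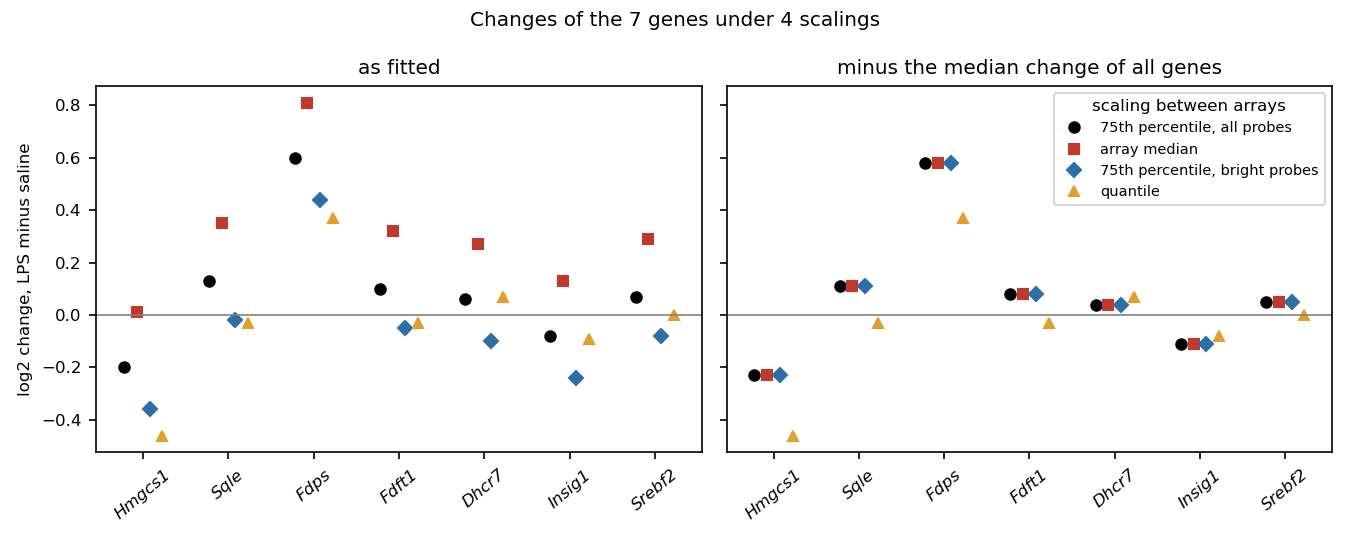
Log2 change of each of the 7 genes, LPS minus saline (y axis), under 4 scalings between arrays (symbols), as fitted on the left and minus the median change of all genes on the right. Fdps lies above and Hmgcs1 below the other 5 genes in each scaling. The 3 scalings by a single value per array coincide by construction once the median of all genes is taken off.

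Among themselves the 7 genes had correlations of both signs. Over the 21 pairs, the correlation of their departures from the group means over 8 arrays was -0.47 to 0.83 with a median of 0.31. It was above 0 in 14 pairs and highest for Fdps and Fdft1. These values share the array and its scaling factor and are a description, with no value for pairs of other genes beside them. The mean change of the 7 genes from the saline mean was 0.134 on LPS 1, 0.168 on LPS 2, 0.0301 on LPS 3 and 0.058 on LPS 4, so that LPS 3 lay nearest to saline. The 5 genes outside the lists whose centred values lay nearest to the mean profile of the 7 were Ncor1, Rbm4, Lrrc31, Slc39a13 and Adsl, with root mean square differences of 0.0218 to 0.0287 over 8 arrays. The 5 genes were chosen on the same 8 arrays. Their changes of 0.09 to 0.13, none of them past the test, follow from that choice. The median difference over all other genes was 0.255. The 7 genes themselves lay at 0.0508 (Fdft1) to 0.264 (Fdps) from their own mean profile, of which each is a part.

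The pathway's other enzymes, 15 of which passed the filter on dim probes, gave 4 calls higher and 1 lower, with a median change of 0.23. All genes gave 27.8% higher and 21.5% lower, so the count higher is near the background. With slide column as a block it was 8 higher and 1 lower, when 7489 of all 22509 genes were called higher and 6131 lower. Among the other mevalonate steps 2 of 6 measured genes rose and 0 fell (median 0.27, and 0.07 to 0.48 over the alternatives). Pmvk, phosphomevalonate kinase, was at 4.20, 4.12, 3.71 and 4.06 on LPS arrays 1 to 4, against 3.43, 3.46, 3.24 and 3.27 on saline arrays 1 to 4. All LPS arrays lay above all saline arrays, and Pmvk rose by 0.67 ± 0.12 (adjusted p = 0.00286), or 0.42 with quantile normalization. Idi1, the isomerase that supplies the second building block of Fdps, rose by 0.26 ± 0.09 (adjusted p = 0.0465). The call of Idi1 was lost in 7 of 8 fits that left out an array and held without LPS 3, where it was 0.34. It was also lost under 5 of 14 alternatives that kept all arrays, slide row as a block among them (adjusted p = 0.0663). The 4 that did not pass lay at 0.04 to 0.31.

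Among the other sterol steps 2 of 9 measured genes rose and 1 fell, against 27.8% and 21.5% of all genes. Their median change was 0.10, and -0.20 with the probes of each gene averaged. Ebp, a sterol isomerase, was at 5.77, 5.67, 5.33 and 5.57 on LPS arrays 1 to 4, against 5.18, 5.16, 4.73 and 4.93 on saline arrays 1 to 4. The groups do not overlap, and Ebp rose by 0.59 ± 0.14 (adjusted p = 0.0085), or 0.23 with quantile normalization. Hsd17b7, a sterol ketone reductase, rose by 0.36 ± 0.10 (adjusted p = 0.0154), or 0.24 (adjusted p = 0.116) once the array median entered the fit. The 6 that did not pass lay at -0.16 to 0.24. Without LPS 3, 8 of the 15 enzymes were called higher and 0 lower. That fit called 7325 of all 22509 genes higher and 5937 lower, against 6267 and 4837 with all arrays.

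Of 6 other genes that control SREBP processing, 1 was called higher and 0 lower, against 27.8% and 21.5% of all genes (median 0.01, or -0.20 with quantile normalization). Srebf1, the gene of SREBP-1, which acts chiefly on fatty acid synthesis, was at 4.43, 4.31, 4.24 and 4.38 on LPS arrays 1 to 4, against 4.01, 4.02, 3.76 and 3.88 on saline arrays 1 to 4. All LPS arrays lay above all saline arrays, and Srebf1 rose by 0.42 ± 0.09 (adjusted p = 0.00494), or 0.15 with quantile normalization. The 5 others lay at -0.12 to 0.10.

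In the list of uptake and handling of lipoprotein cholesterol, 1 of 11 measured genes rose and 3 fell, against 27.8% and 21.5% of all genes (median -0.18, or 0.04 when scaled to the array median). Scarb1, a receptor for high density lipoprotein, rose by 0.52 ± 0.12 (adjusted p = 0.00903), or 0.27 (adjusted p = 0.046) once the array median entered the fit. Lipa, the lysosomal lipase that frees cholesterol from its esters, fell by 0.42 ± 0.11 (adjusted p = 0.013), and Mylip, a ubiquitin ligase that marks lipoprotein receptors for degradation, by 0.41 ± 0.08 (adjusted p = 0.00365). Lrp1, an endocytic receptor, fell by 0.24 ± 0.07 (adjusted p = 0.0192). Scaled to the array median, Lipa was -0.21, Mylip -0.20 and Lrp1 -0.02, none of them past the test, and with quantile normalization they were -0.65, -0.64 and -0.56. The call of Lrp1 was also lost in 3 of 8 fits that left out an array and as the mean of its probes (-0.07). The 7 that did not pass lay at -0.86 to 0.27.

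Fatty acid synthesis, the neighbouring SREBP pathway, gave calls in both directions: 3 of 10 measured genes rose and 6 fell (median -0.35), against 27.8% and 21.5% of all genes, so the count higher is near the background. Scaled to the array median, 3 rose and 3 fell (median -0.13), when 6994 of all 22509 genes were called higher and 2619 lower. Scd1, a stearoyl-CoA desaturase, was at -3.16, -3.38, -2.91 and -2.65 on LPS arrays 1 to 4, against -1.93, -2.11, -1.97 and -2.22 on saline arrays 1 to 4. Every LPS array lay below every saline array, and Scd1 fell by 0.97 ± 0.16 (adjusted p = 0.00212), or by 0.25 with normexp background, where the offset weighs on a signal this low. Fads2, a desaturase of polyunsaturated fatty acids, was at -1.53, -1.30, -1.39 and -1.28 on LPS arrays 1 to 4, against -0.84, -0.65, -0.59 and -0.58 on saline arrays 1 to 4, and fell by 0.71 ± 0.09 (adjusted p = 0.000994), or by 0.39 with normexp background. Elovl6, a fatty acid elongase, fell by 0.71 ± 0.13 (adjusted p = 0.00344), or by 0.47 with normexp and quantile normalization. Mlxipl, the gene of the carbohydrate response factor ChREBP, fell by 0.44 ± 0.08 (adjusted p = 0.00277), or by 0.22 and not past the test when scaled to the array median and by 0.77 with quantile normalization. The carboxylase gene Acaca rose by 0.43 ± 0.09 (adjusted p = 0.00607), the citrate lyase gene Acly by 0.32 ± 0.11 (adjusted p = 0.0371) and the fatty acid synthase gene Fasn by 0.27 ± 0.08 (adjusted p = 0.0233). Acaca was 0.27, Fasn -0.02 and Acly 0.02 with quantile normalization. The call of Acly was also lost with slide row as a block (adjusted p = 0.0583). For Fasn and Acly, calls were lost in 4 and 6 of 8 fits that left out an array.

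**Figure D3:**
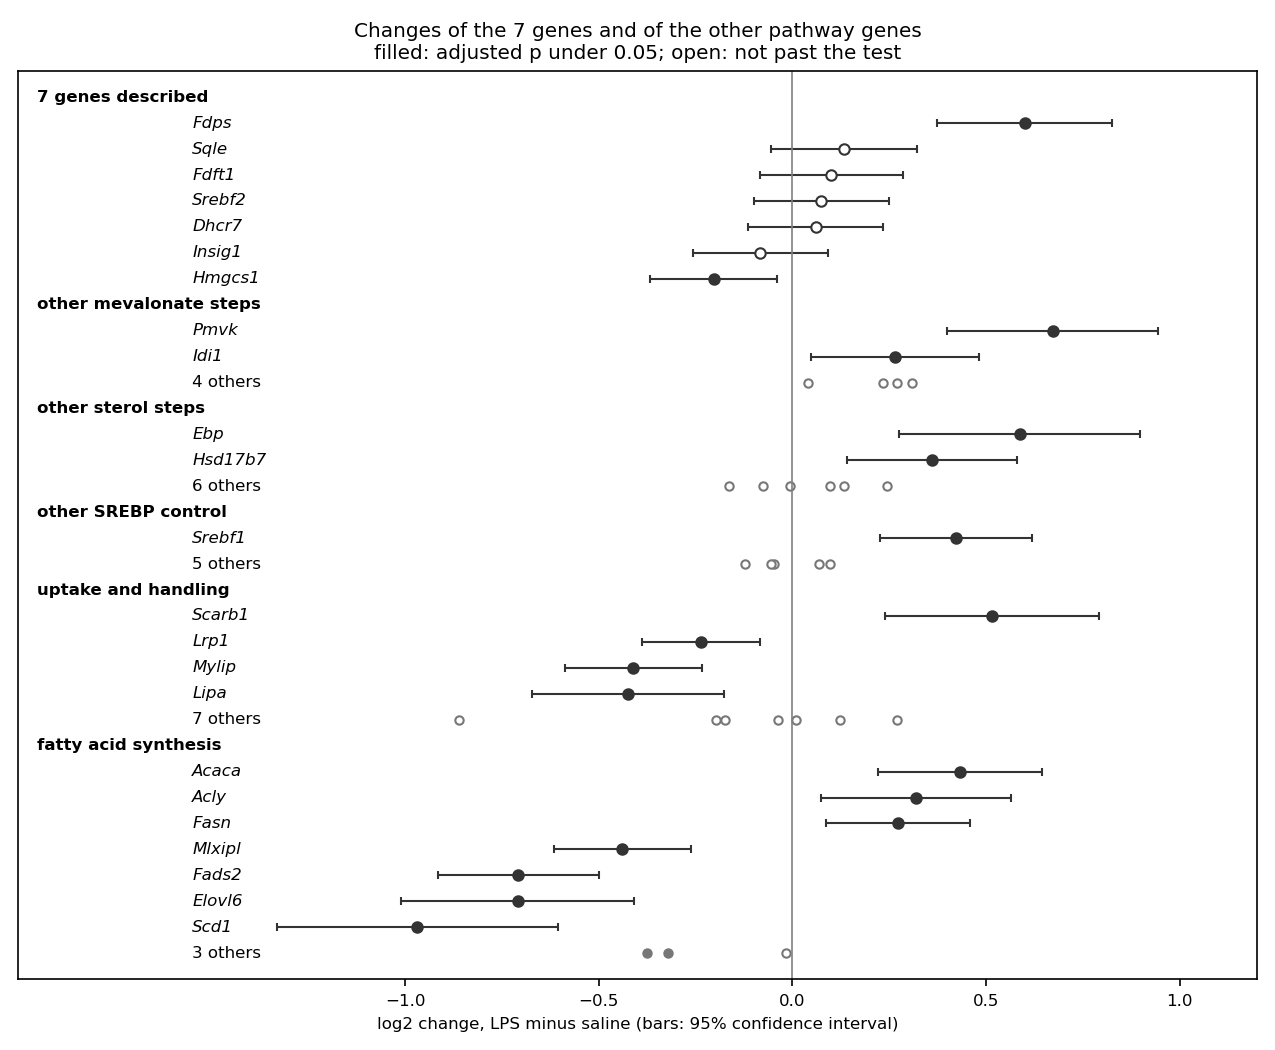
Log2 change, LPS minus saline (x axis), with its 95% confidence interval, for the 7 genes and for the called genes of the other lists up to 4 per direction, and as single points without interval for the others of each list, with 1 called gene of the sterol steps not drawn. Filled points passed the test. Fdps, Pmvk and Ebp lie at 0.59 to 0.67, and Scd1, Elovl6 and Fads2 at -0.97 to -0.71.

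Cells other than myeloid cells were measured beside these genes. Of all genes, 27.8% were called higher and 21.5% lower, and marker counts are given for the main scaling only. All 8 markers of CD11b+ myeloid cells were well above background on every array, with a summed signal of 1692 to 2008 times the 75th percentile of the array on LPS arrays and 1596 to 1963 on saline arrays, and 2 of them rose and 2 fell. Astrocyte markers fell in 7 of 8 genes (median -0.71), with a summed signal of 14.7 to 19.6 on LPS arrays and 25.3 to 32.1 on saline arrays. Oligodendrocyte lineage markers fell in 6 of 10 (median -0.71, 11.8 to 13.1 on LPS arrays and 14.0 to 15.1 on saline arrays). The 4 that did not pass were Olig2 (-0.78), Mog (0.00), Cnp (0.18) and Mag (0.43). Endothelial markers fell in 4 of 6 (median -0.55, 12.3 to 15.6 on LPS arrays and 16.9 to 23.4 on saline arrays). Of neuronal markers 1 of 5 measured rose and 1 fell (6.71 to 8.89 on LPS arrays and 9.09 to 11.1 on saline arrays). Of 7 neutrophil markers S100a8 and S100a9, which other myeloid cells also express, rose and none fell (167 to 296 on LPS arrays and 69.1 to 163 on saline arrays). That sum is mostly the signal of S100a9 and S100a8, at mean levels of 7.44 and 5.93 on LPS arrays. The 5 that did not pass were Ly6g (0.55), Ngp (-0.03), Retnlg (-0.07), Mpo (-0.54) and Camp (-0.89). All 8 astrocyte markers were well above background on all 8 arrays. Among the other markers measured, Olig2 was well above background on 3 of 4 LPS arrays and Ly6g on 2 of 4 saline arrays. The part of these cells in the changes of Hmgcs1, Scd1 and the other genes that fell, or in the genes that rose, was not tested.

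**Figure D4:**
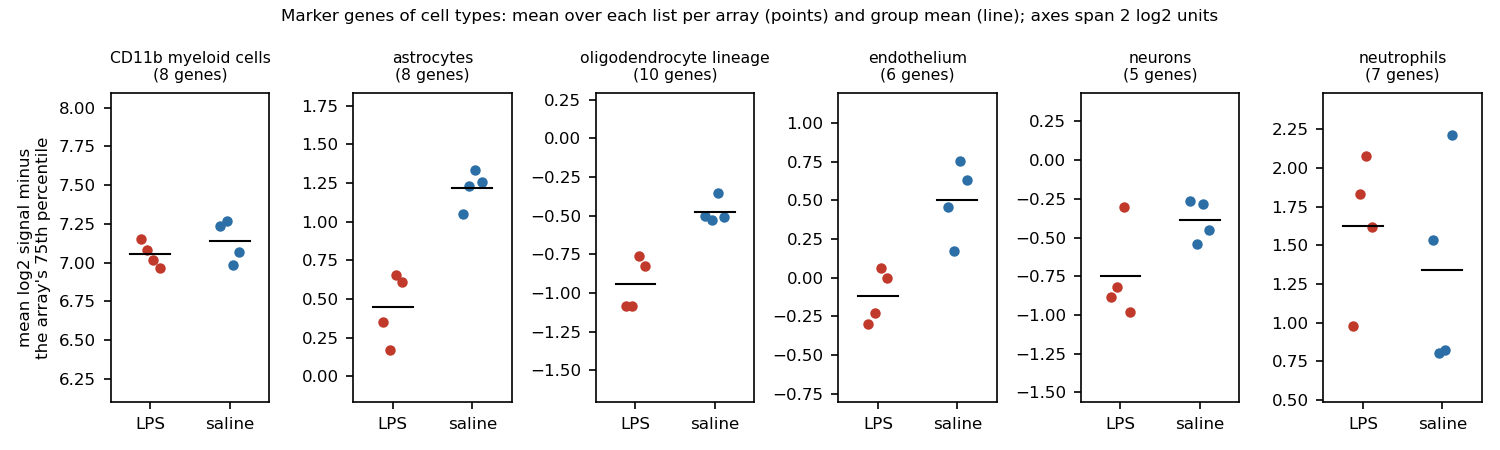
Mean over the marker genes of each cell type on each array, as log2 processed signal minus the 75th percentile of the array (y axis), with LPS arrays left of saline arrays. Points are arrays, lines are group means, and every y axis spans the same range. The LPS arrays lie below the saline arrays for astrocyte, oligodendrocyte lineage and endothelial markers and overlap them for myeloid, neuronal and neutrophil markers.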

How the data were processed

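Total RNA, 50 ng per sample per the labels, was labelled with Cy3 and hybridised to 8 arrays. Spots were read with Agilent Feature Extraction 12.0.3.1, per the submitters' processing notes. The deposited intensity values are processed signals, background-subtracted by spatial detrending and not scaled between arrays, per the file headers. The authors' deposited log2 table correlates at 1.00 with these values once they are scaled to the 75th percentile and each probe's median is taken off, and it served as an alternative. Flags of the deposited files (other values) removed control and outlier spots, and no spot was saturated.

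Replicate spots were averaged, and 6 probes lacking a usable spot on 1 or more arrays were dropped. Of 56599 probes, 35402 were named by RefSeq accession (GRCm38.p6), 9123 by symbol and 25 by synonym, and 12049 kept the name in the file. Values were log2 signal minus the 75th percentile of the array. The filter kept probes that 4 or more of the 8 arrays detected above background (35494), with the brightest probe per gene. The test was limma 3.58.1 (lmFit, eBayes) under R 4.3.3, tested on simulated data, and figures drawn with matplotlib 3.10.9 in Python 3.11.15. Tubes are numbered in the order of the labels, and tubes of the same number in both groups lie in the same slide column, which entered a fit as a block. The 7 genes and all lists were chosen with earlier results of these data known. Besides the 7 genes, the genes named from a list are those called, up to 4 per direction by size, and 1 of them is not reported here. Acat2 and Slc17a7 were on a list and not measured here. The alternatives changed scaling, background, filter, probe choice, variance model, slide position, covariate and the arrays included.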

Additional observations from a re-analysis of the deposited data

Results flagged for a closer look

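Of 48 groups of 4 arrays looked at, 1 held an array set apart from the other 3 of its group by Dixon's gap, and chance gives about 1 in 20. Acaca was at 1.99 on saline 1, while the other saline arrays were at 1.86 to 1.88, a gap of 0.863 of the group's whole range. The value on saline 1 is nearer to the LPS arrays (2.11 to 2.46) than those of the other saline arrays are.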

How the results depend on the processing

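Fdps kept its direction and its call under all 14 alternatives with all arrays and all 8 fits without 1 array, and its direction within each slide row. Within slide row 2, where 2 arrays per group gave 5 calls among all genes, Fdps was 0.57 and not past the test, Hmgcs1 -0.24, Dhcr7 -0.07 and Insig1 0.01, with 0 of the 7 genes higher and 0 lower. Within slide row 1 Hmgcs1 was -0.16, with 0 of the 7 genes lower, where 2678 of all 22509 genes were called lower. Hmgcs1 was -0.20 and not past the test with no filter on dim probes and with slide row as a block, and 0.01 when scaled to the array median (Insig1 0.13), each with 0 of 7 lower, as in the fits without 1 array (Hmgcs1 -0.23 to -0.18, with 1 of 7 higher in each). Among all genes, 2619 of 22509 were called lower with the array median, 4311 of 22509 with slide row as a block and 4285 of 36589 with no filter. The fits without 1 array called 4934 to 7325 of 22509 genes higher and 3690 to 5937 lower. Scaled over the probes detected on every array, Sqle was -0.02, Fdft1 -0.05, Dhcr7 -0.10 and Srebf2 -0.08. With quantile normalization Sqle and Fdft1 were each -0.03 and Fasn -0.02, the same as with normexp before it, where Srebf2 was -0.01. Dhcr7 was -0.21 as the mean of its probes, Srebf2 -0.01 with the median signal as a covariate, and Fdft1 0.18 with array weights, which called 2 of 7 higher. The cause of these moves was not tested.

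Of the 15 other enzymes, 4 were higher and 1 lower. The count higher was 7 with normexp and the 75th percentile, 8 with slide column as a block, 1 within slide row 1, 0 within slide row 2, 9 with array weights, 2 with the covariate, and 3 to 8 without 1 array, 8 only without LPS 3. The count lower was 3 with both quantile normalizations and with scaling over the probes detected on every array, 2 as the mean of probes, 0 with the array median, no filter, slide row as a block, either slide row alone and array weights, and 0 to 1 without 1 array. Calls higher over all 22509 genes moved too, from 6267 in the values reported. They were 6717 with normexp and the 75th percentile, 7489 with slide column as a block and 8168 with array weights. Without LPS 3 there were 7325, with the covariate 4132, and 2923 within slide row 1. Calls lower over all 22509 genes moved as well, from 4837 in the values reported. With quantile normalization there were 5598, with normexp before it 5729, and 7241 with scaling over the probes detected on every array. As the mean of probes there were 4942, with the array median 2619, with array weights 6806, and 2678 within slide row 1. Over all 24 alternatives, the other mevalonate steps gave 0 to 5 higher (2 in the values reported) and the other sterol steps 0 to 4 higher and 0 to 3 lower (2 and 1). SREBP control gave 0 to 1 higher and 0 to 4 lower (1 and 0), uptake 0 to 2 higher and 0 to 5 lower (1 and 3), and fatty acid synthesis 0 to 3 higher and 0 to 6 lower (3 and 6). The labels give no replicate numbers, and the order numbers coincide with slide column, so blocking on slide column compares LPS with saline within columns. That block changed the call of none of the 7 genes. Dim probes limit the values of the second probes of Hmgcs1 and Dhcr7 and of Scd1.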
